A study of Mus musculus with 8 samples.

Results

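RAW 264.7 is a macrophage-like line from BALB/c mice, and the response of these cells to Lactobacillus acidophilus was read on 2 of the 8 arrays of the series. Both were chosen by their titles. On each array the RNA of cells exposed to L. acidophilus for 6 h at a multiplicity of infection (MOI, bacteria added per cell) of 1 carried Cy5, and the RNA of time-matched cells of the same line without bacteria carried Cy3. The other 6 arrays held the same design for Bacillus clausii and Bifidobacterium bifidum, 3 arrays each. The slide with both L. acidophilus arrays, called slide 1 here, also held replicate 3 of B. clausii and replicate 3 of B. bifidum, and the other 4 arrays shared slide 2. The dyes were never swapped, and untreated RNA was only ever the Cy3 partner, so a dye effect and a response cannot be told apart against untreated cells. The design text speaks of biological replicates, yet no label links an array to a separate culture. The p-values therefore cover only how these arrays varied, which could be technical variation.

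Lactobacilli are Gram-positive, and macrophages detect them mainly through their lipoproteins and cell wall polymers, which engage Toll-like receptor 2 with its partners, and through peptidoglycan fragments, which engage NOD2. These receptors signal through MYD88 or RIPK2 to NF-kB and the MAP kinases, which drive the genes of cytokines such as Tnf, Il1b and Il6, of chemokines and of prostaglandin and nitric oxide synthesis. Feedback inhibitors such as Nfkbia and Tnfaip3 are induced by the same pathway and limit it.

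A probe was used where it was well above background in both channels on both L. acidophilus arrays. Of 41174 distinct probes, 19164 met this rule, 15909 of them had a gene symbol, and they measured 11176 genes. Each gene is given by its brightest such probe as the log2 ratio of Cy5 over Cy3, so a positive value is a higher level in treated cells. The probes above background in both channels numbered 21718 on replicate 1 and 19519 on replicate 2, against 20860 on the B. bifidum array and 10056 on the B. clausii array of the slide, whose spot grid the scanner software marked as not good. No spot of slide 1 was saturated, while 80 of the 11176 genes had a saturated spot on slide 2, where their values are only bounds. The typical SD of the log2 ratio between the repeated spots of a probe was 0.0532 on replicate 1 and 0.110 on replicate 2. Of 25 macrophage identity genes, 23 were measured, among them Spi1, Cebpa and Cebpb. None of 10 fibroblast markers, 2 of 10 epithelial, 5 of 12 lymphocyte, 5 of 11 neutrophil and 8 of 10 osteoclast markers were measured, the last a lineage that RAW 264.7 cells can enter.

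The log2 ratios of L. acidophilus over untreated cells were small. The median over all 11176 genes was 0.005 on replicate 1 and -0.008 on replicate 2, and the span from the 1st to the 99th percentile ran from -0.37 to 0.41 and from -0.53 to 0.42. The SD of the difference between the arrays was 0.142, and the ratios of the arrays correlated across genes with Pearson's r = 0.69, where genes are not independent replicates and both arrays share a slide. Both values include Wrap53, at 6.73 on replicate 1 and -0.07 on replicate 2, from a spot with high local background on replicate 1. Without background correction they were 0.1465 and 0.71. A total of 4381 genes (39.2%) were above 0 on both arrays and 4440 (39.7%) were below 0 on both. Only 13 genes (0.116%) were above 0.5 on both and 26 (0.233%) below -0.5 on both, and none lay past 0.5 in opposite directions. Past 1, there were 0 genes above and 3 below, namely Grn, Syt10 and Lars2.

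**Figure D1:**
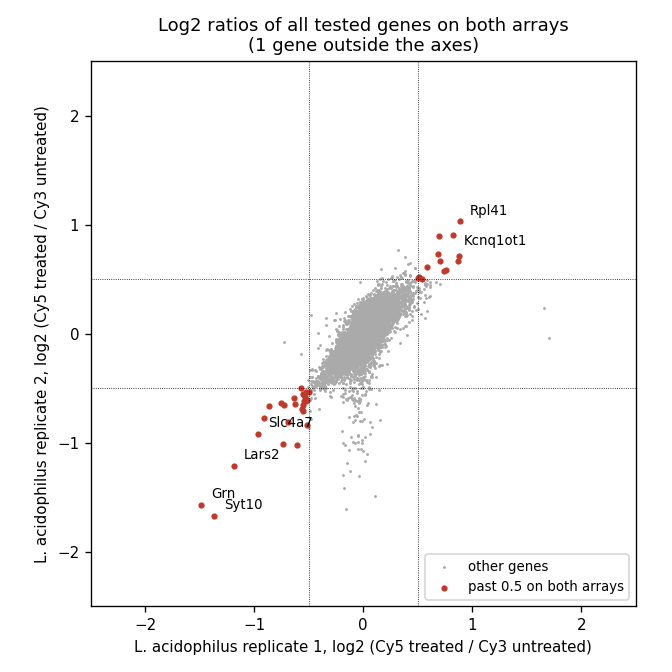
Log2 ratio of treated over untreated for each of the 11176 genes on L. acidophilus replicate 1 (x axis) and replicate 2 (y axis), with dotted lines at -0.5 and 0.5. Red points are the 13 genes above 0.5 and the 26 genes below -0.5 on both arrays, and grey points below the main cloud are genes low on replicate 2 only.

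The arrays differed most among dim genes. Below -0.5 on replicate 2 but not on replicate 1 there were 102 genes, against 4 genes for the reverse. Their median log2 ratio on replicate 1 was -0.09, and their median Cy3 level on replicate 2 was 7.74 on the log2 scale, against 9.49 for all genes. Of these 102 genes, 15 were also below -0.5 on the B. bifidum array and 2 on the B. clausii array. Genes above 0.5 on 1 array only were bright: 32 were above it on replicate 1 only, with a median Cy3 level of 14.17, and 26 on replicate 2 only, with 12.97. The untreated channel varied more between the arrays than the treated channel, with an SD of the difference of 0.167 for Cy3 and 0.117 for Cy5.

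Across the 11176 genes, no gene passed an adjusted p of 0.05 in limma when the spread was taken from all 8 arrays: 0 rose and 0 fell, a share of 0 percent in each direction. At an unadjusted p under 0.05 there were 822 genes (7.36%), and the smallest adjusted p was 0.0820. When the slide entered the fit as a block, so that shifts shared by a slide no longer counted as error, 146 genes were called higher (1.31%) and 129 lower (1.15%). The block takes such shifts out of the error only. L. acidophilus was on slide 1 alone, so a shift shared by the arrays of slide 1 stays in the ratio that is tested. With the arrays of slide 1 alone, 1797 were called higher and 1868 lower. The values of the L. acidophilus arrays are the same in these fits, and what differs is the error. The slide block leaves the spread between slides out of it. On slide 1 alone the other strains have 1 array each. The error there comes only from the differences between the L. acidophilus arrays, with 1 residual degree of freedom. Below, each adjusted p is limma's over all genes from the fit of all 8 arrays unless the slide block is named.

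The genes with the highest ratios coded for parts of the ribosome, a lipid droplet protein, an alarmin and a long noncoding RNA. Rpl41, a small ribosomal protein, had log2 ratios of 0.88 and 1.03 on replicates 1 and 2 (mean 0.96, SD 0.10, n = 2, a fold of 1.94, adjusted p = 0.0820, and 0.00854 with the slide block). It was at 0.92 on the B. bifidum array of the slide. Its Cy3 signal was saturated on all 4 arrays of slide 2, so no ratio is given there, and the p-values of Rpl41 draw part of their spread from those arrays. Kcnq1ot1, the antisense RNA of an imprinted domain, stood at 0.83 and 0.90 on the L. acidophilus arrays (mean 0.87, SE of the fit 0.20, adjusted p = 0.497, and 0.00854 with the slide block). Both of its values exceeded the 0.52 of the B. bifidum array and the 0.09 of the B. clausii array, and it was below 0 on all 4 arrays of slide 2, from -0.52 to -0.15.

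Plin2, the coat protein of lipid droplets, was at 0.87 and 0.67 on the L. acidophilus arrays and at 0.73 on the B. bifidum array (mean 0.77, SE 0.12, adjusted p = 0.287, and 0.0208 with the slide block). On slide 2 it was -1.73 on both B. clausii arrays and 0.30 and 0.54 on the B. bifidum arrays, and the B. clausii array of slide 1 gave no value for it. Il33, an alarmin of the interleukin-1 family, read 0.71 and 0.67 (mean 0.69, SE 0.12, adjusted p = 0.287), next to 0.66 on the B. clausii and 0.27 on the B. bifidum array of the slide. On slide 2 Il33 was above background on 0 of 4 arrays in Cy3 and on 0 of 4 in Cy5, so its ratios there compare background levels. The L. acidophilus values of Il33 were the highest of the 8 arrays, but its difference from the other strains on the slide, 0.23, did not pass the test (SE 0.09, adjusted p = 0.252). Junb, an AP-1 subunit induced early by many stimuli, stood at 0.58 and 0.62, below the 1.00 of the B. bifidum array. On slide 2 the sign of Junb depended on the strain, at 0.45 and 0.55 with B. clausii and -0.56 and -0.50 with B. bifidum.

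Clec5a, a myeloid lectin receptor that signals through DAP12, was at 0.74 and 0.58 (mean 0.66, SE 0.28, adjusted p = 0.667), while its 2 other probes averaged -0.12 and -0.07. Ptma, coding for prothymosin alpha, read 0.69 and 0.90 by its brightest probe and -0.30 by its other probe, so its probes disagreed in direction. Lrrc58 at 0.69 and 0.74 and Morf4l1, a chromatin factor, at 0.76 and 0.59 completed the highest genes with Rplp1, an acidic ribosomal stalk protein, at 0.88 and 0.71. The 3 other probes of Lrrc58 lay between -0.34 and -0.04, and those of Morf4l1 between 0.02 and 0.48. For Clec5a, Ptma and Lrrc58 the direction thus rests on 1 probe.

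The lowest ratios belonged to Grn, which codes for progranulin, a secreted and lysosomal glycoprotein. Its brightest probe read -1.49 and -1.57 on the L. acidophilus arrays (mean -1.53, SD 0.06, n = 2, SE of the fit 0.90, adjusted p = 0.773, and 0.00854 with the slide block). The scanner's processed signals behind it were 14240 in Cy5 against 40900 in Cy3 on replicate 1, and 13880 against 43440 on replicate 2. The B. clausii and B. bifidum arrays of the slide were lower still, at -1.88 and -2.32, whereas the same probe was at 0.91 to 1.36 on slide 2. The other probe of Grn averaged -0.25 on the L. acidophilus arrays.

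The same split between slides held for Lars2, the mitochondrial leucyl-tRNA synthetase. It was at -1.18 and -1.21 on the L. acidophilus arrays and -1.15 and -1.58 on the other arrays of slide 1. On slide 2 its Cy5 signal was saturated on all 4 arrays, and the measured 1.09 to 1.54 are lower bounds. The level of Lars2 in the untreated channel also differed, at 12.5 on the log2 scale on both L. acidophilus arrays and 15.2 to 15.3 on slide 2. Slc4a7, a sodium bicarbonate cotransporter, read -0.96 and -0.92 and lay between 0.90 and 1.33 on slide 2, with untreated levels of 12.9 and 12.5 on the L. acidophilus arrays against 8.37 to 9.54 there. Its 2 other probes lay between -0.12 and 0.12. Dusp8, a MAP kinase phosphatase, stood at -0.76 and -0.63 and at 1.51 to 1.76 on slide 2, and its other probes averaged -0.12. For Grn, Lars2, Slc4a7 and Dusp8 all 4 arrays of slide 1 were below 0 and all 4 of slide 2 above 0, and L. acidophilus was read on slide 1 only.

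Syt10, a synaptotagmin, had -1.37 and -1.67 on the L. acidophilus arrays, -2.03 on the B. bifidum array and -0.22 on the B. clausii array. Other low genes followed this order: Caskin2, a scaffold protein, had -0.91 and -0.77, and Dll4, a Notch ligand, had -0.69 and -0.81. Both were much lower on the B. bifidum array, at -2.00 and -2.09, and nearer 0 on the B. clausii array, at -0.35 and 0.21. Fam110a, with -0.74 and -1.01, again had its lowest value, -1.23, on the B. bifidum array. For all 4 genes the L. acidophilus arrays lay between the other 2 arrays of the slide. Their untreated levels were dimmest on the B. clausii array of the slide, at 7.66 for Syt10, 9.85 for Caskin2, 7.09 for Dll4 and 6.65 for Fam110a. On the other arrays of slide 1 they were 9.01 to 9.19, 11.65 to 11.96, 8.64 to 9.37 and 8.47 to 8.52. The part of these levels in the order was not tested.

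Slc39a5, a zinc transporter, read -0.86 and -0.66 on the L. acidophilus arrays (mean -0.76, SE 0.09, adjusted p = 0.0820, and 0.00854 with the slide block) and between -0.17 and -0.03 on all 6 other arrays, without overlap, although on slide 2 it was above background in Cy5 on 0 of 4 arrays. Its probe was not above background in both channels on every array of slide 1, and its difference from the other strains was not tested. It is dim on the L. acidophilus arrays too: its processed signals were 31.9 in Cy5 and 161.8 in Cy3 on replicate 1, and 7.37 and 30.1 on replicate 2. Rpl22l1, a ribosomal protein paralog, had -0.73 and -0.65 and was below 0 on all 8 arrays.

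**Figure D2:**
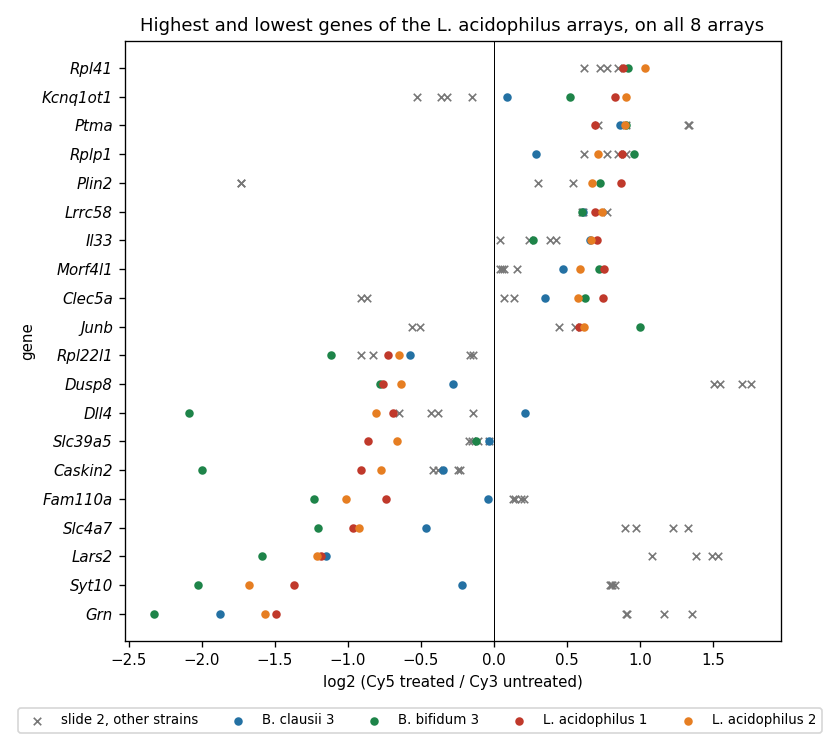
Log2 ratio of treated over untreated (x axis) for the 10 highest and 10 lowest genes of the L. acidophilus arrays (y axis), with coloured points for the 4 arrays of slide 1 and grey crosses for the 4 arrays of slide 2, where Rpl41, Rplp1, Lrrc58 and Lars2 had saturated spots. Grn, Syt10, Lars2, Slc4a7 and Dusp8 are below 0 on slide 1 and above 0 on slide 2, and Slc39a5 is below -0.5 on the L. acidophilus arrays only.

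Of the 13 genes above 0.5 on both L. acidophilus arrays, 13 had the same sign on the B. bifidum array and 10 of these were above 0.5 there. All 10 that the B. clausii array measured were above 0 on it. Of the 26 genes below -0.5, 26 had the same sign on the B. bifidum array, 24 of them below -0.5, and 23 had it on the B. clausii array. On slide 2, 12 of these 26 were below 0 on all 4 arrays, 11 were above 0 on all 4 and 3 were mixed. Of the 13 high genes, 6 were above 0 on all 4 arrays of slide 2, 1 was below 0 on all 4 and 6 were mixed or lacked a value. Of these 39 genes, 4 were saturated on slide 2. Birc6, at 0.51 and 0.52, and Rgs3, at 0.53 and 0.50, lay just inside the limit of 0.5, and S100a4, at 0.54 and 0.50, and Rack1, at 0.58 and 0.49, just outside. At the lower limit Grin3b, at -0.57 and -0.50, and Lsm5, at -0.50 and -0.53, lay just inside, while Golgb1, at -0.50 and -0.60, lay just outside. Across all genes, r between a L. acidophilus array and the B. bifidum array of the slide was 0.65 and 0.64, and with the B. clausii array 0.47 and 0.45. With the arrays of slide 2 it lay between 0.01 and 0.13.

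The genes of inflammatory mediators read lower in the treated channel more often than higher. Of 20 measured genes of proinflammatory cytokines and enzymes, none passed the test over 8 arrays, 12 were below 0 on both arrays and 5 above, against 39.7% and 39.2% of all genes. Their median was -0.09 on replicate 1 and -0.16 on replicate 2. It was -0.18 on the B. clausii and -0.11 on the B. bifidum array of slide 1. With median centring the list's median over both L. acidophilus arrays was 0.14, against 0.23 for all genes. Csf2, the granulocyte-macrophage growth factor, had -0.49 and -0.61 (mean -0.55, SE 0.16, adjusted p = 0.571), and Csf3, the granulocyte growth factor, had -0.40 and -0.50. Il1b, the precursor of interleukin-1 beta, read -0.43 and -0.45 (mean -0.44, SD 0.02, n = 2, adjusted p = 0.60). Il6 read -0.35 and -0.42 (mean -0.39, SE 0.13, adjusted p = 0.655). With the slide as a block these 4 of the 20 were called lower, against 1.15% of all genes, with adjusted p = 0.0269 for Csf2, 0.0275 for Csf3, 0.0202 for Il1b and 0.0296 for Il6.

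All 4 were also below 0 on the other arrays of the slide. The B. clausii and B. bifidum arrays gave -0.25 and -0.68 for Csf2, -0.48 and -0.59 for Csf3, -0.53 and -0.38 for Il1b, and -0.32 and -0.33 for Il6. Untreated cells of the slides differed in these genes. The untreated level of Il1b was 12.2 on both L. acidophilus arrays and 6.57 to 6.61 on slide 2, and that of Il6 was 8.37 and 8.44 against 6.46 to 6.54. For Csf2 it was 8.42 and 8.49 against 6.38 to 6.43. On slide 2 these 3 genes were above background in Cy5 on 0 of 4 arrays, and their ratios there lay between -0.09 and 0.17. The part of these levels in the result was not tested. Within slide 1 the L. acidophilus values overlapped those of the other strains for Csf2, Csf3 and Il1b and lay just below them for Il6. Saa3, an acute phase protein, had -0.42 and -0.47 (adjusted p = 0.514, and 0.0541 with the slide block). Tnf stood at -0.14 and -0.24 and Ptgs2, the inducible cyclooxygenase, at -0.12 and -0.15, with untreated levels of 12.3 for Ptgs2 on both arrays against 8.62 to 8.72 on slide 2. Both ratios turned positive, to 0.42 and 0.30, with median centring in place of loess. Nos2, the inducible nitric oxide synthase, had 0.04 and 0.11. Acod1, which makes itaconate, was the highest of the list at 0.31 and 0.47 (adjusted p = 0.774).

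The chemokines split by gene. Ccl2, which attracts monocytes, was at 0.39 and 0.49 (mean 0.44, SE 0.08, a fold of 1.36, adjusted p = 0.287, and 0.026 with the slide block), between the 0.24 of the B. clausii array and the 0.54 of the B. bifidum array. Ccl4 had -0.39 and -0.48 and Ccl7 -0.29 and -0.35, both positive with median centring, at 0.31 and 0.16. Ccl3 read 0.33 and 0.25, so the neighbouring and related Ccl3 and Ccl4 had opposite signs on both arrays. Cxcl10, an interferon-inducible chemokine, had -0.26 and -0.29 (adjusted p = 0.88) and Ccl5 -0.13 and -0.31. Of 14 measured chemokines, 6 were above 0 on both arrays and 6 below (42.86% each, against 39.2% and 39.7% of all genes), and none passed the test. Ccl12 differed between the arrays, at -0.05 on replicate 1 and -0.93 on replicate 2. Probes for Cxcl1, Cxcl9 and Ccl22 were not well above background in either channel on either array.

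The receptors that detect bacteria had small ratios, and none passed the test. Tlr2, the receptor for Gram-positive lipoproteins, had 0.13 and 0.07 (mean 0.10, adjusted p = 0.969), Tlr4, the receptor for lipopolysaccharide, 0.26 and 0.21, and its co-receptor Cd14 0.21 and 0.15. Tlr2 was below 0, at -0.15, with the slide as a random block, and Cd14 was at -0.06 with the scanner's processed signals. Clec4d, a C-type lectin receptor of macrophages, was the highest of the 27 measured genes, at 0.49 and 0.28 (adjusted p = 0.517, and 0.0489 with the slide block). Map3k7, the kinase TAK1, stood at 0.21 and 0.27, and Myd88, the common adaptor, at -0.19 and -0.22. In this list 13 genes were above 0 on both arrays and 9 below (48.15% and 33.33%, against 39.2% and 39.7% of all genes). The medians were 0.03 and -0.02.

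Among 17 measured NF-kB subunits and inhibitors, 6 were above 0 on both arrays and 8 below, and none passed the test. These are 35.29% and 47.06%, against 39.2% and 39.7% of all genes. Rela had -0.24 and -0.23, Relb -0.19 and -0.17 and Bcl3, a nuclear cofactor of NF-kB, -0.24 and -0.40. These 3 genes were positive with median centring, at 0.12, 0.10 and 0.11. Nfkbia, the inhibitor induced by NF-kB, read 0.16 and 0.15, against -0.05 on the B. clausii and 0.42 on the B. bifidum array. The feedback inhibitor Tnfaip3 had -0.08 and -0.21. Of 17 genes of the anti-inflammatory group, 4 were above 0 on both arrays (23.53%) and 10 below (58.82%), beside the same shares of all genes. Il10, an anti-inflammatory cytokine, was at 0.02 and -0.004, without an effect beyond the spread between the arrays. Arg1, the arginase of alternatively activated macrophages, had 0.15 and 0.18, and Socs1, which restrains cytokine receptors, -0.17 and -0.25 (0.003 with median centring).

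**Figure D3:**
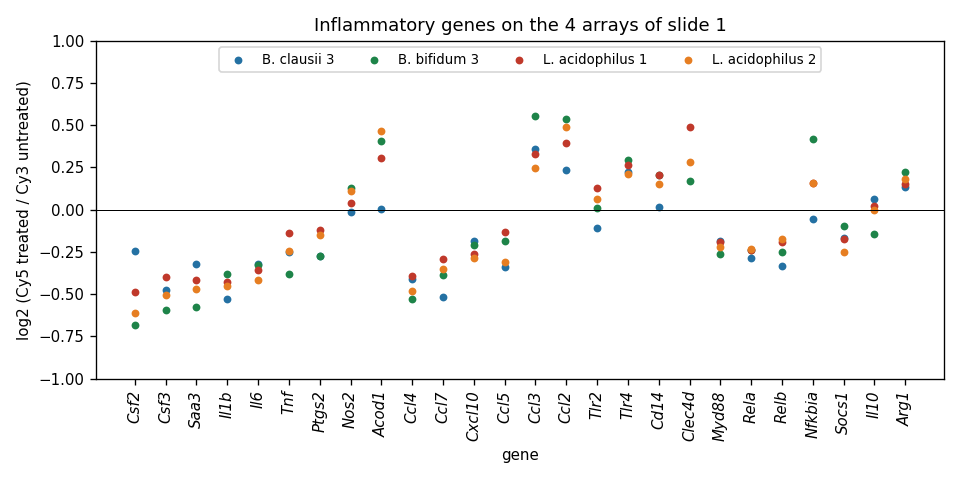
Log2 ratio of treated over untreated (y axis) for 26 inflammatory and sensing genes (x axis) on the 4 arrays of slide 1, 1 point per array. The points of the L. acidophilus arrays lie among or beside those of the other strains for most genes, with Csf2, Csf3, Saa3, Il1b and Il6 below 0 on all 4 arrays and Ccl2 and Ccl3 above 0 on all 4.

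Interferon-induced genes showed no common direction, with 15 of 38 above 0 on both arrays and 15 below, and medians of 0.02 and -0.01. These are 39.47% each, against 39.2% and 39.7% of all genes. Isg15, a ubiquitin-like modifier, had -0.27 and -0.46, and Eif2ak2, the kinase PKR, 0.32 and 0.31. Antigen presentation genes were likewise divided, 8 above (40%) and 9 below (45%) 0 on both arrays of 20. In this list Ctss, the protease that processes the invariant chain, stood at 0.37 and 0.56. Of 23 macrophage identity genes 12 (52.17%) were above 0 on both arrays and 6 (26.09%) below, with medians of 0.04 on both. Members on the low side included Spi1, the master regulator of the lineage, at -0.34 and -0.29, and Cebpa at -0.24 and -0.27.

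Lysosome and phagosome genes were below 0 on both arrays in 24 of 44 cases (54.55%) and above in 15 (34.09%), against 39.7% and 39.2% of all genes. Their medians were -0.06 and -0.08. With median centring the median over both arrays was 0.32, against 0.23 for all genes. Their members ran in both directions: Mcoln1, a lysosomal calcium channel, had -0.38 and -0.47 (0.06 with median centring), and Atp6v1a, a subunit of the proton pump, 0.40 and 0.47. Cholesterol synthesis genes were below 0 on both arrays in 14 of 25 cases (56%) and above in 7 (28%), beside the same shares of all genes. Srebf2, the transcription factor that drives them, had -0.46 and -0.44 (mean -0.45, SE 0.08, adjusted p = 0.287, and 0.0237 with the slide block), though its other probe averaged 0.03. The B. bifidum array gave -0.41 for Srebf2 and the B. clausii array -0.07. Lipid droplet and cholesterol export genes were above 0 on both arrays in 14 of 22 cases (63.64%) and below in 6 (27.27%), against 39.2% and 39.7% of all genes. Their medians were 0.14 and 0.11. The B. clausii and B. bifidum arrays had medians of 0.06 and 0.10 for that list.

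Among stress genes, Hsp90aa1, the inducible cytosolic chaperone, had 0.57 and 0.46 (mean 0.52, SE 0.11, adjusted p = 0.36, and 0.0375 with the slide block). Hsph1 read 0.31 and 0.26 and Stip1, which links HSP70 to HSP90, -0.29 and -0.36, so chaperone partners differed in sign. Txnrd1, a thioredoxin reductase and NRF2 target, was at 0.51 and 0.42, and the ferritin genes Fth1 and Ftl1 were at 0.37 and 0.26 and at 0.43 and 0.28. Hspa5, the chaperone of the endoplasmic reticulum, had 0.34 and 0.33, while Ppp1r15a, a target of the integrated stress response, had -0.31 and -0.37. The 38 measured genes of the unfolded protein response and the integrated stress response had medians of 0.005 and -0.010.

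Glycolysis and hypoxia genes were above 0 on both arrays in 20 of 36 cases (55.56%) and below in 10 (27.78%), against 39.2% and 39.7% of all genes. Their medians were 0.11 and 0.09. The B. clausii and B. bifidum arrays of slide 1 had medians of 0.09 and 0.11, so the list did not separate the strains on that slide. On slide 2 the medians were 0.10 on both B. clausii arrays and 0.22 on both B. bifidum arrays. Bnip3, a mitophagy receptor induced by hypoxia, had 0.41 and 0.64 and Gpi1, the isomerase of the second step of glycolysis, 0.45 and 0.43. Eno1, the enolase, went the other way, at -0.54 and -0.58 (mean -0.56, SE 0.10, adjusted p = 0.287, and 0.0302 with the slide block), and was below 0 on all 8 arrays. In the respiratory chain list, 29 of 75 genes (38.67%) were above 0 on both arrays and 30 (40%) below, near the shares of all genes. Atp5mpl and Atp5k, small subunits of ATP synthase, had -0.52 and -0.60 and -0.47 and -0.39 (0.001 and 0.04 with median centring), while Uqcrh of complex III had 0.61 and 0.45.

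Ribosomal protein genes lay mostly on the high side: 57 of 79 were above 0 on both arrays and 13 below, against 39.2% and 39.7% of all genes. Their median was 0.16 on replicate 1 and 0.19 on replicate 2. It was 0.20 on the B. bifidum array and -0.02 on the B. clausii array of the slide, and on slide 2 42 of the 79 genes were saturated. With the slide as a block, 8 of the 79 were called higher and 0 lower, against 1.31% and 1.15% of all genes, among them Rps6 at 0.61 and 0.43. The median over both arrays was 0.17 after loess, 0.04 with the scanner's processed signals and 0.90 with median centring. The median on the L. acidophilus arrays was thus above 0 under each of these settings, at very different sizes.

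Replication-dependent histone genes lay mostly on the low side. These genes make the histones packed onto new DNA, and their transcripts lack poly(A) tails. On both arrays 24 of 27 were below 0 (88.89%) and 1 was above (3.70%), against 39.7% and 39.2% of all genes. Their medians were -0.14 and -0.27. The other arrays of slide 1 had medians of -0.22 and -0.25, and those of slide 2 lay between -0.34 and -0.13. H2ac15 read -0.63 and -0.64 (mean -0.64, SD 0.01, n = 2, SE 0.08, adjusted p = 0.0820) and H2ac13 -0.63 and -0.59 (adjusted p = 0.0820), and both lay below -0.5 on all 8 arrays. With the slide as a block 7 of the 27 were called lower, against 1.15% of all genes. The H2a and H4 genes are near-identical in sequence, so a probe may read several of them and the members are not independent. The list's median over both arrays was -0.31 with the processed signals and 0.07 with median centring, a setting under which all genes had a median of 0.23. Cell cycle genes as a whole had medians of 0.01 and -0.03 over 44 genes, with Pcna at 0.29 and 0.26 and Tk1 at -0.32 and -0.30 (0.08 with median centring).

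**Figure D4:**
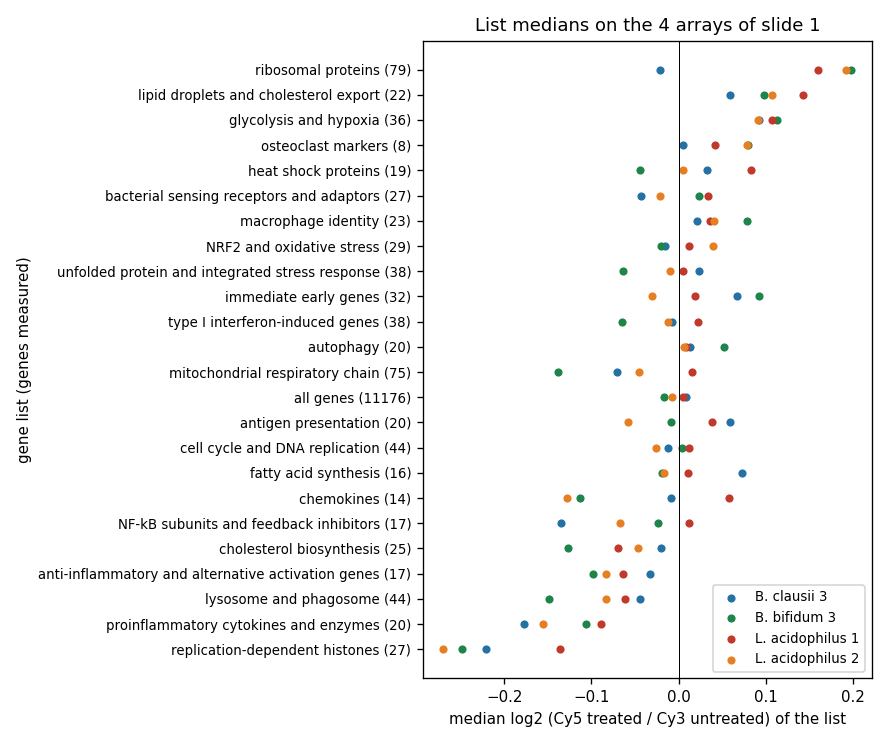
Median log2 ratio of treated over untreated (x axis) of each gene list with 8 or more measured genes (y axis, number measured in brackets) on the 4 arrays of slide 1, 1 point per array. Histone genes are at the low end on all 4 arrays, and ribosomal protein genes are at the high end on the L. acidophilus and B. bifidum arrays but at -0.02 on the B. clausii array.

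Comparing strains within slide 1 removes a dye effect that is alike on every array, and 7004 genes were above background in both channels on its 4 arrays. Between the L. acidophilus arrays the SD of the difference was 0.122 over these genes. Between a L. acidophilus array and another strain it was 0.152 to 0.177 with B. bifidum and 0.145 to 0.163 with B. clausii, more than between replicates. The 0.122 includes Wrap53, at 6.73 on replicate 1 and -0.07 on replicate 2. Without background correction the SD between the L. acidophilus arrays was 0.097, against 0.153 to 0.162 with B. bifidum and 0.148 to 0.150 with B. clausii. With the processed signals it was 0.087, against 0.156 to 0.162 and 0.215 to 0.223. The other strains have 1 array each here, so 1 degree of freedom, that of the L. acidophilus arrays, carried the error. limma then gave every gene the same SE, 0.107 for a pair of strains, and a gene whose arrays disagree gets no larger error than others. That SE draws on the differences between the L. acidophilus arrays over all genes, so the gap of Wrap53 enters the error of every gene. The part of Wrap53 in the counts below was not tested.

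Against B. clausii, 96 genes were called higher with L. acidophilus (1.37%) and 24 lower (0.343%). The B. clausii side is 1 array, whose spot grid was marked as not good, and it also enters the mean of both strains. It had 10056 probes above background in both channels, against 19519 to 21718 on the other arrays of the slide. The part of this in the calls was not tested. Against B. bifidum, 111 were called higher (1.58%) and 39 lower (0.557%), and against the mean of both, 51 higher (0.728%) and 10 lower (0.143%). These counts are not stable: with all 8 arrays and the slide as a block limma called no gene in any of the 3 comparisons, and an unadjusted p under 0.05 was reached by 500, 659 and 236 genes. Both L. acidophilus arrays lay above both other arrays in 1355 genes (19.3%) and below both in 1116 (15.9%). As a check without shared arrays, replicate 1 minus B. bifidum was set against replicate 2 minus B. clausii, which gave r = -0.02 across genes, and the other assignment gave 0.03. With median centring these were 0.24 and 0.30.

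Against each of the other strains separately, 8 genes were called higher with L. acidophilus and 0 lower. Eef1g, a translation elongation factor subunit, had 0.32 and 0.18 on the L. acidophilus arrays, -0.19 on the B. clausii and -0.16 on the B. bifidum array (difference from their mean 0.43, SE 0.09, adjusted p = 2.6e-04). Slc25a5, the mitochondrial ADP/ATP carrier, had 0.15 and 0.33 against -0.24 and -0.19 (difference 0.45, adjusted p = 9.0e-05). Rpl37, a ribosomal protein, had 0.08 and -0.001 against -0.33 and -0.56, and Rsrp1, an arginine and serine rich protein, 0.19 and 0.01 against -0.44 and -0.29. Hnrnpf, an RNA-binding splicing regulator, had 0.59 and 0.46 against 0.14 and 0.16 (difference 0.37, adjusted p = 0.00534). In these 5 genes the L. acidophilus arrays and the other arrays did not overlap.

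Fbxo36, an F-box protein, had 0.09 and 0.18 against -0.72 and -0.24, without overlap. With Cy5 alone the differences of Hnrnpf and Fbxo36 were below 0, at -0.21 and -0.39. The untreated level of several of these genes stood apart on the B. clausii array. It was 9.93 there for Fbxo36 against 7.98 to 8.14 on the other 3 arrays of the slide, 13.45 for Rpl37 against 15.11 to 15.69, and 13.90 for Slc25a5 against 15.11 to 15.77. The part of this in the results was not tested. The last 2 rest on replicate 1 alone. Wrap53, a telomerase and Cajal body factor, was at 6.73 on replicate 1 and -0.07 on replicate 2. On replicate 1 the local Cy3 background of its spot was 10532.5 against a spot signal of 8272.5, and without background correction its ratio there was -0.23. Il20rb, a cytokine receptor chain, was at 1.66 and 0.23, and its Cy5 background on replicate 1 was 1043, against 28 to 30 on the other 3 arrays of the slide.

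The widest gaps between the L. acidophilus arrays and both others were found on the high side for Eef1g, Fbxo36, Slc25a5, Rpl37, Grn, Rsrp1, Ipp and Neat1. Neat1, the noncoding RNA of paraspeckles, had 0.11 and 0.21 against -0.30 on the B. clausii and -0.18 on the B. bifidum array, with an untreated level of 12.14 on the B. clausii array and 13.69 to 13.84 on the others. The gap of Grn means that it was less low with L. acidophilus, at -1.49 and -1.57 against -1.88 and -2.32. On the low side the widest gaps were those of Acsl1, Ckap4, Tmem134, Sae1, Ptpro, Rp9, Blnk and Tnfaip8l1. Acsl1, a long-chain acyl-CoA synthetase, had -0.05 and -0.03 against 0.25 and 0.25, and Blnk, an adaptor of immune receptor signalling, -0.20 and -0.17 against 0.08 and 0.07. Ptpro, a receptor tyrosine phosphatase, had -0.08 and -0.16 against 0.32 and 0.18 (difference -0.37, SE 0.09, adjusted p = 0.00562), with an untreated level of 8.15 on the B. clausii array and 10.46 to 10.57 on the others. All 8 low-side genes turned positive with median centring, at 0.08 to 0.37, and with Cy5 alone Acsl1, Blnk and Ptpro did as well, at 0.39, 0.33 and 0.84.

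**Figure D5:**
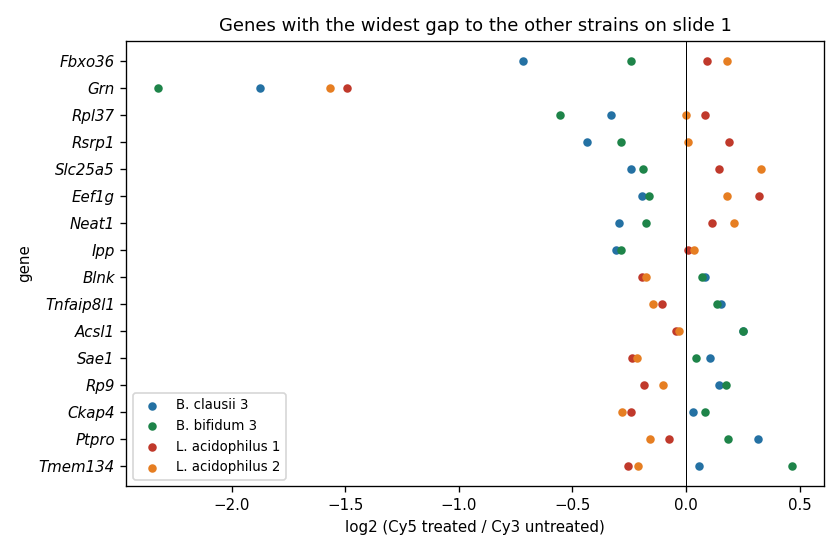
Log2 ratio of treated over untreated (x axis) for the 8 genes with the widest gap in each direction (y axis) between the L. acidophilus arrays and the other arrays of slide 1, 1 point per array. In every gene shown both L. acidophilus points lie on 1 side of both other points, which is how the genes were chosen.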

How the data were processed

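Each array was a 2-colour Agilent whole mouse genome design with 45018 features, of which 43379 were not controls. Intensity values per spot were deposited by the authors as scanner output, written by Agilent Feature Extraction 10.7.3.1 per the file headers (10.5.1.1 per the submitters' processing notes). A separate deposited table held the log10 ratio per spot (median 0), equal to the scanner's log ratio within 0.005, and was turned to log2. Median Cy5 and Cy3 signals were 103 and 139 on replicate 1 and 89 and 152 on replicate 2. The number of arrays limits the precision.

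Here the median signals were background-corrected with normexp (offset 50) and normalised by loess within the array in limma 3.58.1 (R 4.3.3), with control spots at weight 0 and outlier spots left out. Repeated spots were averaged by probe. A probe counted as well above background where at least 0.5 of its spots were. Accessions were matched without versions to RefSeq genes of GRCm38.p6, naming 27198 of 41174 probes, and 3756 genes had several usable probes, of which the brightest was taken. Levels of a single channel are log2 values after Aquantile scaling between arrays.

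L. acidophilus was tested against untreated as its mean log2 ratio against 0, in a model of all 8 arrays with 1 mean for each strain, two-sided, with Benjamini-Hochberg adjustment at 0.05. A spot left out as an outlier leaves a gene with 7 arrays, as for Rpl41, Plin2 and Junb on the B. clausii array of slide 1. The strains were compared on the 4 arrays of slide 1. The scripts were tested on simulated data. Genes were named by rule: 12 fixed genes, the 10 highest and 10 lowest on both arrays, the 8 widest gaps in each direction, and up to 3 genes of each list. Csf3, Ccl3, Ccl5, Ccl12, Acod1, Nfkbia, Tnfaip3, Myd88, Rps6 and the genes at the 0.5 limit were named for their role or place after their values were seen. The genes and lists were chosen with earlier results of these data known.

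Whether same-numbered replicates deviate together was checked with deviations from the strain means over 11031 genes. The correlations were -0.10 to -0.01 for pairs with a L. acidophilus array and 0.36 to 0.48 for pairs of the other strains. Same-numbered arrays of the other strains also shared a slide, and the deviations of the L. acidophilus arrays mirror each other. The check therefore cannot tell pairing by number from a shared slide. The numbers were not taken to pair the L. acidophilus arrays. Alternatives were other background corrections, signals, normalisations, probe filters, blocks and spread models, and leaving out each array.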

Additional observations from a re-analysis of the deposited data

Results flagged for a closer look

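Within slide 1, 8 genes were called higher with L. acidophilus against both other strains tested separately, and 0 were called lower, each from limma's test of the difference at an adjusted p of 0.05. At an unadjusted p under 0.05 there were 691 genes against B. clausii and 1063 against B. bifidum. The log2 difference from the mean of the other strains was 0.43 for Eef1g, 0.62 for Fbxo36, 0.37 for Hnrnpf, 0.49 for Rpl37, 0.46 for Rsrp1 and 0.45 for Slc25a5. It was 3.39 for Wrap53 and 0.74 for Il20rb. For Wrap53 it was -0.005 without L. acidophilus replicate 1, and the part of the spot's background in the result was not tested beyond the values given with it. With all 8 arrays and the slide as a block, no gene was called against both strains, and with median centring 1 gene was called higher and 0 lower.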

How the results depend on the processing

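Against untreated cells, the count of 0 calls stayed at 0 without background correction and with the scanner's processed signals, the deposited table and median centring. It also did with both other probe filters, the slide as a random block, and an intensity trend. Aquantile scaling leaves the log2 ratios as they are, so its 0 calls only repeat the main fit. The replicate number as a block also gave 0, with 1361 genes at an unadjusted p under 0.05. The mean of a gene's probes gave 4 calls, the slide as a block 275, and the slide 1 or L. acidophilus arrays alone 3665. Leaving out 1 array gave 0 to 6 calls: 6 without B. clausii replicate 3 and 1 without L. acidophilus replicate 2. Median centring moved the median of all genes to 0.40 on replicate 1 and 0.07 on replicate 2, so its directions are relative to that shift. The cause of the changes below was not tested.

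Genes above 0.5 on both arrays numbered 23 with the processed signals or the deposited table and 523 with median centring. Below -0.5 there were 55, 55 and 4, and in opposite directions 1, 1 and 0. Within the slide, calls against B. clausii, B. bifidum and their mean were 463, 838 and 385 without background correction, 2091, 1437 and 1696 with processed signals, and 2039, 1351 and 1618 with the deposited table. They were 1, 3 and 11 with median centring, 6123, 394 and 5605 with Cy5 alone, 0 with all 8 arrays and the slide as a block, and 604, 1217 and 627 with a robust intensity trend, chosen after seeing the data. Leaving out B. clausii replicate 3 could not change the count against B. bifidum, 150. That array adds nothing to the error of this fit or to that difference.

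Signs that turned positive with median centring were those of Atp5k (0.0358), Atp5mpl (0.0007), Bcl3 (0.11), Camp (0.0694), Ccl4 (0.31), Ccl7 (0.16), Cebpb (0.15), H4c4 (0.0505), Ier2 (0.17), Itgax (0.0383), Mcoln1 (0.0574), Msmo1 (0.12), Ptgs2 (0.30), Rela (0.12), Relb (0.10), Sbno2 (0.0339), Socs1 (0.0028), Tk1 (0.0814) and Tnf (0.42), and within the slide Acsl1 (0.28), Blnk (0.37), Ckap4 (0.13), Ptpro (0.10), Rp9 (0.30), Sae1 (0.11), Tmem134 (0.0818) and Tnfaip8l1 (0.18). With the slide as a random block the sign turned for Atp5k (0.0416), Dusp8 (0.17), Fasn (-0.0048), Fos (-0.28), Msmo1 (0.0702), Psme2 (-0.0474), Ptgs2 (0.10) and Tlr2 (-0.15). Cd14 (-0.0648 and -0.0647) and Il10 (-0.04 in both) turned with the processed signals and the deposited table, and Il10 ran from -0.0035 to 0.019 when either L. acidophilus array was left out. With Cy5 alone within the slide the sign turned for Acsl1 (0.39), Blnk (0.33), Fbxo36 (-0.39), Hnrnpf (-0.21), Il20rb (-0.18), Ptpro (0.84), Tmem134 (0.62) and Tnfaip8l1 (0.067). Wrap53 turned to -0.12 without background correction, -0.0144 and -0.0145 with the processed signals and the deposited table, and ran from -0.0047 without L. acidophilus replicate 1 to 6.79 without replicate 2.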

Other observations

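Probes above background in only 1 channel fall outside the comparisons above, and on the L. acidophilus arrays they were nearly all on the treated side. There were 2951 probes of 1185 genes well above background in Cy5 on both arrays and in Cy3 on neither, and 0 probes the other way. Olfr1299, an olfactory receptor gene, had the highest bound, at least 1.47-fold higher in the treated channel, and its normalised log2 ratio was 0.66 and 0.47, against 0.73 on the B. bifidum array and -0.10 on the B. clausii array. Ndp, which codes for the Frizzled ligand norrin, had a bound of 1.28-fold, with log2 ratios of 0.30 and 0.70. Gulo, an enzyme of vitamin C synthesis, had a bound of 1.24-fold, with 0.18 and 0.62. The bounds refer to the mean of both arrays, not to each array. On the log2 scale they were 0.56 for Olfr1299, 0.35 for Ndp and 0.31 for Gulo, and 1 array of each gene had a smaller ratio. No gene had a bound over 2-fold, and the median bound was 1.007-fold. Each bound sets the mean Cy5 level against the higher of the probe's own Cy3 level and the lowest level of a probe above background, and is open to dye bias. The excess of Cy5 went with the slide: 3585 and 5825 probes were above background in Cy5 alone on the L. acidophilus arrays and 145 and 179 in Cy3 alone, while the B. clausii arrays of slide 2 had 34 and 72 in Cy5 alone against 5818 and 4430 in Cy3 alone.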
